A study of Mus musculus with 10 samples.

Results

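The alpha and beta variable (V) segments of the mouse T cell receptor were followed through 3 droplet single-cell RNA libraries of lymph nodes. Members were every gene whose symbol begins with Trav or Trbv: 163 of the 32285 genes listed, made of 128 alpha and 35 beta segments. They were counted in 5 pools of cells. The T cell library of axillary nodes held 3 hashtagged pools: wild-type BALB/c mice bearing 4T1 tumours, mice bearing 67NR tumours, and untreated (naive) mice. The other pools were atlas libraries of T, B and myeloid cells from the axillary node and from the mediastinal node of naive mice. All mice were 8-week-old females. 4T1 and 67NR are mouse mammary carcinoma lines, injected into the mammary fat pad and grown for 18 days to 500 mm3. Each condition had 1 hashtag and no map from cells to mice, so levels were set side by side between conditions without a test, and tumour and naive pools entered a test only as groups of pools.

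A T cell receptor chain is assembled in the thymus by joining one V segment to a J segment, with a D segment between them in the beta chain, and the DNA between the joined segments is usually lost while V segments further upstream stay on the chromosome. Through allelic exclusion most mature T cells carry one productive beta chain, and CD8 and CD4 T cells use the same segments in different proportions after selection on class I and class II MHC molecules. In BALB/c mice, superantigens of endogenous mammary tumour viruses, presented with the class II molecule I-E, delete thymocytes that bear certain beta families. Those families are Trbv26, Trbv12-1, Trbv12-2, Trbv16 and Trbv15, which the RefSeq synonyms name Tcrb-V3, Tcrb-V5.2, Tcrb-V5.1, Tcrb-V11 and Tcrb-V12.

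Some segments are near copies of each other, which bears on their counts below. The first pair shown is the most abundant alpha segment and its copy, the second is the pair of Tcrb-V5 segments, and the last ones are the beta segments with the largest differences between CD8 and CD4 cells. Each line gives the 3' end of the V exon, up to 300 bases, read 5' to 3' from the GENCODE transcripts of GRCm38, the assembly that mm10 names. In the pairs, capitals mark the bases that differ between the 2 segments. Trav16n differs from Trav16d-dv11 in 3 bases (99% identity), and Trbv12-2 from Trbv12-1 in 32 bases (89.1% identity). In Trbv20 and Trbv29, capitals mark runs of 4 or more A. All 6 lie on the plus strand within the exon that encodes the variable domain.
Trav16n, chr14:53351322-53351621: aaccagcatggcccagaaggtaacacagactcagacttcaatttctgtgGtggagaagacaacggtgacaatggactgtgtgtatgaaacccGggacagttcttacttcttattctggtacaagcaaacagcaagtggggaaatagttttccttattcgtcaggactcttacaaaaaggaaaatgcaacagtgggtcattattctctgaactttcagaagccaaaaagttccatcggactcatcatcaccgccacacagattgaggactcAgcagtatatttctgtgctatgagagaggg
Trav16d-dv11, chr14:53047522-53047821: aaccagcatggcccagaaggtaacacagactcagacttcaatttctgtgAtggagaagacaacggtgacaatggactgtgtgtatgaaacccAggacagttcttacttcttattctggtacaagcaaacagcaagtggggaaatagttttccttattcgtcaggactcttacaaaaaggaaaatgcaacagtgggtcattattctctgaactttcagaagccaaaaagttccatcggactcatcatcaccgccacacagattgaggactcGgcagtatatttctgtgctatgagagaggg
Trbv12-2, chr6:41119072-41119364: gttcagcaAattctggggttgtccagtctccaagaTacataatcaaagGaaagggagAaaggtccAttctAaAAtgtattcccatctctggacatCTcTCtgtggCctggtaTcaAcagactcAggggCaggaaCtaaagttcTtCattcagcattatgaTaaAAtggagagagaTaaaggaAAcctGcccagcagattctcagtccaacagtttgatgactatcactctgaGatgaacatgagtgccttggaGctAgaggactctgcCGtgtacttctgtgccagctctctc
Trbv12-1, chr6:41113775-41114067: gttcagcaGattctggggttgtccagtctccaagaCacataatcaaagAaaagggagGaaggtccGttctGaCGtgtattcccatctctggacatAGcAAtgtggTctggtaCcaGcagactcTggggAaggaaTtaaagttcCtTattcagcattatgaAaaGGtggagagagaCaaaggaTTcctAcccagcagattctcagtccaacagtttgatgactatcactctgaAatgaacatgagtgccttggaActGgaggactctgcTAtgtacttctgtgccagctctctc
Trbv20, chr6:41188678-41188977: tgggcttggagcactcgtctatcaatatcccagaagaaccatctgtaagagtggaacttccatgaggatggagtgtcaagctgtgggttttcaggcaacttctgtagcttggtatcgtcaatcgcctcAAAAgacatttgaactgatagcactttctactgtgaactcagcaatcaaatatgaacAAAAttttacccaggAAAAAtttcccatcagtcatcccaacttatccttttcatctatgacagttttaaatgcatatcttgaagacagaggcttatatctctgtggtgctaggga
Trbv29, chr6:41271587-41271881: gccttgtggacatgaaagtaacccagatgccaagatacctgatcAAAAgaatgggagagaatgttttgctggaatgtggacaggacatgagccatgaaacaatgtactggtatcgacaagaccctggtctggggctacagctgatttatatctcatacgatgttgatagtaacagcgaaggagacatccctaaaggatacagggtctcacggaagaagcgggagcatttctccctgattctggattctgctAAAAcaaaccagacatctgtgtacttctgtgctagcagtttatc

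The 3 libraries differed in depth. The T cell library gave 7210 cells with a median of 10930 UMIs (unique molecular identifiers, 1 per captured transcript), the axillary atlas 11503 cells with 6653, and the mediastinal atlas 25148 cells with 2272. V segments took 10622, 2139 and 2553 UMIs in that order of libraries. Cells were gated on transcripts other than V segments: CD8 (Cd8a or Cd8b1, no Cd4, no Foxp3), CD4 (Cd4, no Cd8a, Cd8b1 or Foxp3) and Foxp3 (regulatory T cells, no Cd8a or Cd8b1). Each gate also needed a Cd3 UMI and no Trdc, and excluded B cell, Lyz2 and Ncr1 transcripts. The CD8 gate held 1087 cells in the 4T1 pool, 1077 in 67NR, 1002 in naive, 227 in the axillary and 1528 in the mediastinal atlas, the Foxp3 gate 381, 427, 353, 441 and 256, and the CD4 gate 498, 491, 466, 820 and 649.

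The mediastinal atlas stood apart. A V UMI was seen in 9.36% of its CD8 cells, 17.2% of its Foxp3 cells and 10.8% of its CD4 cells, while the other 4 pools had 47.6% to 68.2%, 37.6% to 53% and 42.4% to 62.7% in the same gates. In its CD8 gate the thymocyte genes Rag1, Rag2, Dntt and Ptcra summed to 133 CPM (counts per 1000000 UMIs of the gate), against at most 0.81 CPM in the CD8 gates of the other pools. Its B cell markers summed to 451 CPM in the CD8 gate and 361 CPM in the CD4 gate, against at most 13.6 CPM elsewhere, and its myeloid markers to 387 and 283 CPM, against at most 13.9 CPM. Their part in the results was not tested, and results that change without this pool are given both ways. As background, V UMIs were seen in 3 of 1902 axillary B cells (0.158%, median 5753 UMIs per cell) and in 11 of 336 mediastinal B cells (3.27%, median 2071 UMIs). Between 6 and 82 cell barcodes were shared by any 2 of the 5 gene libraries of the series.

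Of the 163 segments, 108 had at least 1 UMI: 100 in the T cell, 90 in the axillary and 98 in the mediastinal library. All 22 beta segments annotated as functional were detected, and 4 of the 13 beta pseudogenes, which together held 91 UMIs. At the alpha locus 73 of 108 functional segments and 9 of 20 pseudogenes were seen. The alpha locus of the reference carries repeated blocks whose segments bear the letters d and n, and 19 of 39 d copies and 15 of 34 n copies were detected, against 48 of the other 55 alpha segments. The reference follows another strain, C57BL/6, and Cell Ranger by default does not count reads that match several genes equally, so a segment without UMIs is not shown to be unused. For the same reason the order of segments by UMIs is not an order of use.

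A few segments held most of the UMIs. The 10 most abundant beta segments held 88.1% of beta V UMIs among T cell library cells, 83.6% among axillary and 84.4% among mediastinal ones, while the 10 most abundant alpha segments held 56.2%, 53.9% and 46.2% of alpha V UMIs. Over the 3 libraries Trbv2 came first with 1459 UMIs, then Trbv12-2 with 1110, Trbv13-2 with 898, Trbv19 with 735, Trbv20 with 734, Trbv13-1 with 674, Trbv29 with 414, Trbv13-3 with 398, Trbv1 with 372 and Trbv31 with 257. Trbv31 lies downstream of the constant regions and joins by inversion. At the alpha locus Trav16n came first with 1028 UMIs, then Trav3-3 with 689, Trav14d-3-dv8 with 411, Trav16d-dv11 with 318, Trav21-dv12 with 260, Trav7-3 with 256, Trav5-1 with 244, Trav4-4-dv10 with 220, Trav17 with 215 and Trav13-1 with 199.

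Segments also differed in how many UMIs a positive cell gave. In the T cell library Trbv2 gave 2.71 UMIs per positive cell and up to 22 in 1 cell, whereas Trbv12-2 gave 1.28 and Trbv13-2 1.27, with about the same share of positive cells at a single UMI (80.3% and 80.5%). For Trbv2 that share was 45.4%. Trav16n gave 2.29 UMIs per positive cell and Trav17 2.49. A segment's UMIs therefore weigh a few cells more for Trbv2 and Trav17 than for Trbv12-2. Trbv2 also has the longest run of A among these 20 transcripts, 6 bases, and whether that bears on its UMIs was not tested.

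**Figure D1:**
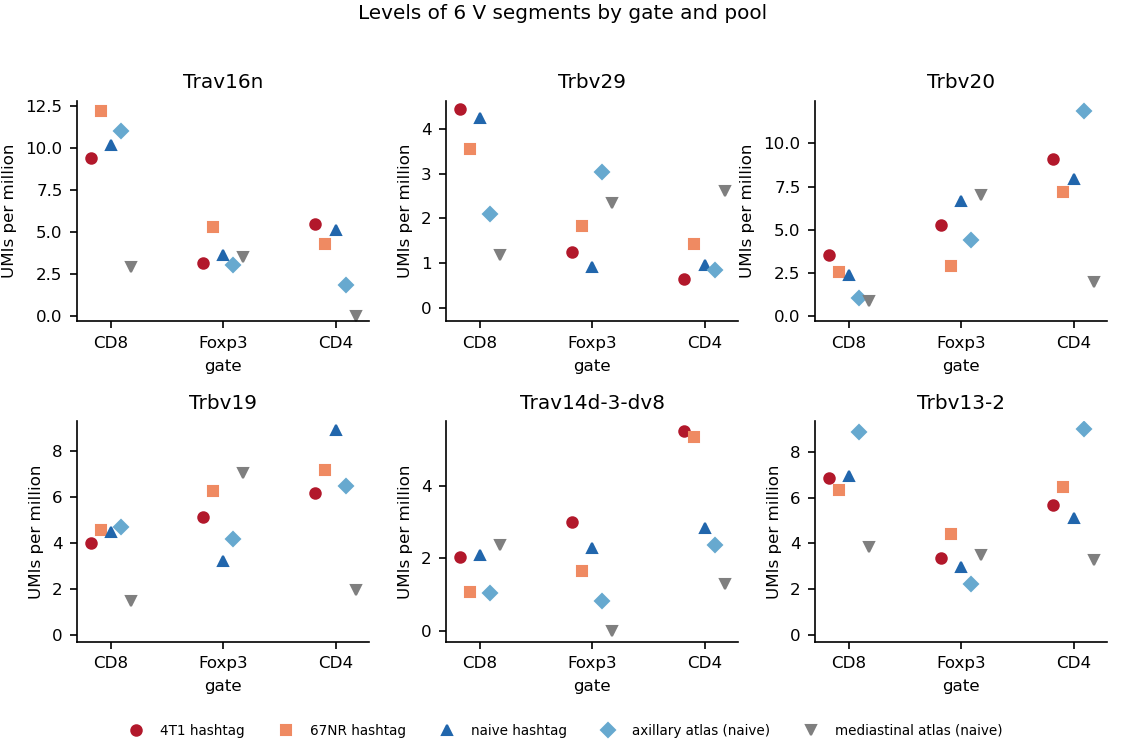
Levels in CPM (y axis) of the segments called in a gate comparison, 1 panel each, in the CD8, Foxp3 and CD4 gates (x axis). Each point is 1 of 5 pools, with colours and symbols as in the legend, and Trbv20 is at 3.51 CPM or less in every CD8 pool, while Trav16n is at 9.39 CPM or more in 4 of them.

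CD8 cells were compared with CD4 cells of the same pools, which asks whether segment use follows the coreceptor. Trav16n and Trbv29 were higher in the CD8 gate, and Trbv20, Trbv19 and Trav14d-3-dv8 were lower. Of the 163 segments 12 had enough UMIs to be tested, and 2 were called higher and 3 lower. Of all 11013 genes tested 10.6% were called higher and 13.7% lower in CD8, and the 2 and 3 of 12 are to be read against those shares. The median log2 difference was 0.205 over the 12 segments and 0.0093 over all genes. P-values came from the quasi-likelihood test of edgeR, Benjamini-Hochberg adjusted over all genes, with the pool as a block, and they measure the spread between pools.

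Trbv20, called Tcrb-V15 among the RefSeq synonyms, had 3.51, 2.53, 2.36, 1.05 and 0.889 CPM in the CD8 gates of the 4T1, 67NR, naive, axillary and mediastinal pools, against 9.09, 7.17, 7.96, 11.9 and 1.95 CPM in the CD4 gates. It was lower in CD8 in all 5 pools, and only the mediastinal CD4 value lay within the range of the CD8 values. The log2 difference was -1.63 ± 0.24 (SE, adjusted p = 0.00145 in edgeR's quasi-likelihood test). Counted as cells with at least 1 UMI, which leaves aside how many UMIs a cell gives, Trbv20 was seen in 3.13% of 4T1 CD8 cells and 6.02% of 4T1 CD4 cells, in 2.69% and 4.68% of the 67NR cells, in 1.9% and 5.58% of the naive cells, and in 0.881% and 6.46% of the axillary cells. CD8 cells were the deeper ones, with a median of 13339 UMIs against 9488 in the CD4 cells of the 4T1 pool.

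Trbv19, called Tcrb-V6, was lower in CD8 by less. Its CD8 gates had 4, 4.57, 4.45, 4.7 and 1.48 CPM in the same order of pools, against 6.17, 7.17, 8.91, 6.45 and 1.95 CPM in the CD4 gates. CD8 was lower in each pool, and without the mediastinal pool the gates did not overlap by CPM. By cells with a UMI they did overlap. The CD8 cells had 4.78%, 5.2%, 4.29% and 3.08% in the 4T1, 67NR, naive and axillary pools. The CD4 cells had 6.02%, 5.7%, 6.87% and 3.78%. The log2 difference was -0.65 ± 0.18 (SE, adjusted p = 0.0252 in edgeR's quasi-likelihood test).

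Trbv29, called Tcrb-V7, went the other way. It had 4.43, 3.55, 4.24, 2.09 and 1.19 CPM in the CD8 gates of the 4T1, 67NR, naive, axillary and mediastinal pools, against 0.65, 1.43, 0.948, 0.849 and 2.6 CPM in the CD4 gates. CD8 was higher in 4 of 5 pools, and in the mediastinal pool each gate rested on 4 UMIs. The log2 difference was 1.66 ± 0.42 (SE, adjusted p = 0.0185 in edgeR's quasi-likelihood test), and 2.06 ± 0.35 within the T cell library (adjusted p = 0.00143). Cells with a Trbv29 UMI made up 3.77% of CD8 and 0.803% of CD4 cells in the 4T1 pool, 3.34% and 1.43% in 67NR, and 3.49% and 0.858% in naive.

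Trav16n showed the clearest alpha difference. Its CD8 gates had 9.39, 12.2, 10.2, 11 and 2.96 CPM, against 5.52, 4.3, 5.12, 1.87 and 0 CPM in the CD4 gates, in the same order of pools. CD8 was higher in all 5 pools, with a log2 difference of 1.40 ± 0.27 (SE, adjusted p = 0.00521 in edgeR's quasi-likelihood test). Since Trav16n and Trav16d-dv11 differ in 3 of the 300 bases shown above, the share of the family is given as well. The Trav16 family took 24%, 33.9%, 25.1%, 25.8% and 19% of alpha V UMIs in the CD8 gates, against 12.9%, 9.44%, 13.6%, 7.46% and 0% in the CD4 gates, the last being 0 of 36 UMIs, which 95% exact limits put at up to 9.74%. The Foxp3 gates had 9%, 18.3%, 13.2%, 19.6% and 15.8%.

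Trav14d-3-dv8, a segment that can also join at the delta locus, was lower in CD8 in 4 of 5 pools. It had 2.05, 1.08, 2.09, 1.05 and 2.37 CPM in the CD8 gates, against 5.52, 5.37, 2.84, 2.38 and 1.3 CPM in the CD4 gates. The mediastinal pool went against the others, on 8 CD8 and 2 CD4 UMIs. By cells with a UMI the naive pool did so too, with 2.69% of CD8 and 2.36% of CD4 cells. The 4T1, 67NR and axillary CD8 cells had 2.21%, 1.39% and 0.881%, and their CD4 cells 3.21%, 3.87% and 1.46%. The log2 difference was -1.16 ± 0.37 (SE, adjusted p = 0.0456 in edgeR's quasi-likelihood test).

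The other 7 segments tested had log2 differences between -0.27 (Trbv2) and 0.32 (Trbv12-2, adjusted p = 0.174 in edgeR's quasi-likelihood test) and were not called. Within the T cell library alone, with 26 segments deep enough to test, all 5 calls held and 3 more passed. These were Trav16d-dv11 at 1.10 and Trav21-dv12 at 1.34, both higher in CD8, and Trbv31, called Tcrb-V14, at -0.98 (by edgeR's quasi-likelihood test, adjusted p = 0.0398, 0.0142 and 0.0266). The 10.6% and 13.7% of all genes given above belong to the fit over 5 pools, and no such share is given for this fit. Leaving out 1 pool at a time kept Trbv20 and Trav16n called in 5 of 5 fits. Trbv29 was lost in 3 of them (without the 4T1, 67NR or naive pool), as was Trbv19. Trav14d-3-dv8 was called only in the fit without the mediastinal pool, where all 5 segments and Trbv31 passed. DESeq2 called Trbv20 and Trav16n of the 12, and a fit without the pool as a block called Trbv20 and Trbv29.

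**Figure D2:**
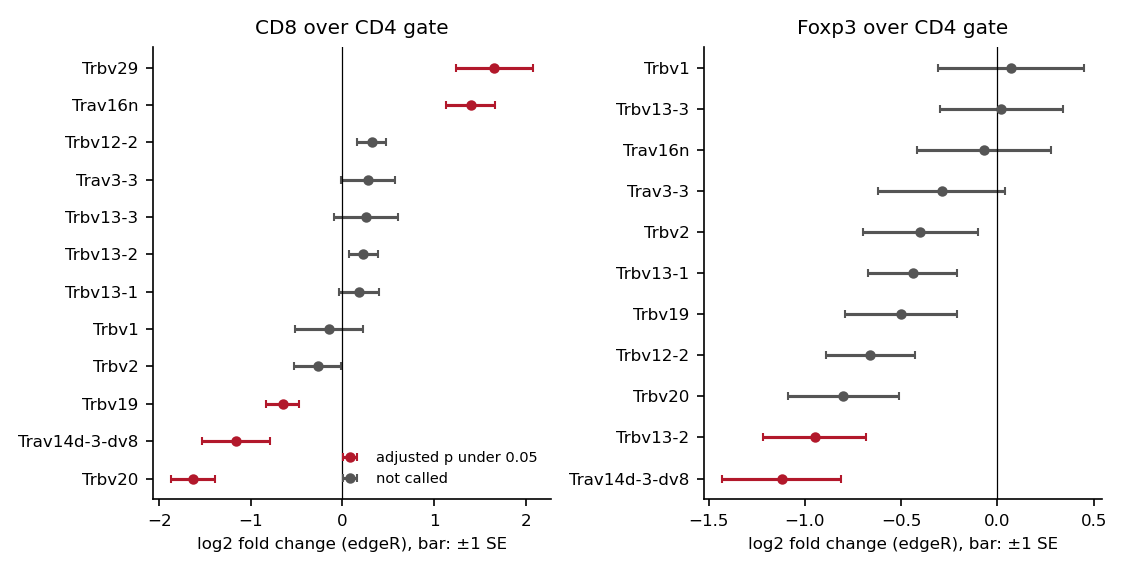
Log2 differences (x axis) of each tested segment (y axis), CD8 over CD4 and Foxp3 over CD4, from edgeR's quasi-likelihood fit over 5 pools. Points are estimates, bars their standard errors, and red points passed an adjusted p of 0.05. Trbv20 lies at -1.63 and Trbv29 at 1.66 in CD8 over CD4, and 9 of the 11 Foxp3 estimates lie below 0.

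Trbv20 and Trbv31 are the families that the superantigen of the C3H mammary tumour virus engages. Together they took 10%, 7.13%, 6.12%, 2.11% and 7.69% of beta V UMIs in the CD8 gates of the 4T1, 67NR, naive, axillary and mediastinal pools. The Foxp3 gates had 14.3%, 11.9%, 19.8%, 13.6% and 18.4%, and the CD4 gates 22.7%, 14.1%, 18.6%, 22% and 8.89%. CD8 had the lowest share in each pool. Against the 3 naive pools, the 4T1 share lay above their range in the CD8 and CD4 gates and within it in the Foxp3 gate. The 67NR share lay within their range in the CD8 and CD4 gates and below it in the Foxp3 gate. By counting error, the 4T1 CD4 interval (18.4 to 27.4%) and the 67NR Foxp3 interval (8.14 to 16.7%) overlapped those of all 3 naive pools. The 4T1 CD8 interval (8.2 to 12.1%) overlapped the mediastinal one (3.15 to 15.2%, 7 UMIs). It lay above those of the naive hashtag (4.65 to 7.9%) and the axillary atlas (0.256 to 7.4%). These shares were not tested between conditions.

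Foxp3 cells were compared with Foxp3-negative CD4 cells, which asks whether regulatory T cells use other segments than the remaining CD4 cells. No segment was called higher and 2 of 11 tested were called lower, Trbv13-2 and Trav14d-3-dv8. Of all 10996 genes tested, 9.98% were called higher and 8.91% lower in Foxp3. Of the 11 segment estimates 9 lay below 0, with a median of -0.44, against -0.0048 over all genes.

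Trbv13-2, called Tcrb-V8.2, had 3.36, 4.4, 2.98, 2.21 and 3.5 CPM in the Foxp3 gates of the 4T1, 67NR, naive, axillary and mediastinal pools, against 5.68, 6.45, 5.12, 9 and 3.25 CPM in the CD4 gates. Foxp3 was lower in 4 of 5 pools (log2 difference -0.95 ± 0.27, SE, adjusted p = 0.0315 in edgeR's quasi-likelihood test). Trav14d-3-dv8 had 3, 1.65, 2.29, 0.828 and 0 CPM in the Foxp3 gates, against the CD4 values above. It was lower in all 5 pools, with 0 against 2 UMIs in the mediastinal one (log2 difference -1.12 ± 0.31, SE, adjusted p = 0.0312 in edgeR's quasi-likelihood test). Trbv12-2 at -0.66 ± 0.23 and Trbv20 at -0.80 ± 0.29 did not pass (adjusted p = 0.0709 and 0.0811, edgeR). Both calls were lost in the fits without the 4T1, the 67NR or the axillary pool, with DESeq2, and without the pool as a block, and Trbv13-2 was also lost without the naive pool and in the T cell library alone (adjusted p = 0.0551 in edgeR's quasi-likelihood test). Without the mediastinal pool both held, and Trbv12-2 and Trbv20 passed as well.

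Both calls rest on the scale used. V UMIs as a whole made up 76 ± 8.16 CPM in the Foxp3 gates, against 99.6 ± 28.9 CPM in the CD4 gates (SD, n = 5 pools each), and 93.6 ± 24.9 CPM in the CD8 gates. When segments were tested as shares of their locus instead of shares of all UMIs, none of the 11 was called in Foxp3 over CD4, and 4 of the 5 stayed called in CD8 over CD4, without Trbv19. The constant regions were lower in Foxp3 as well, Trac at -0.40, Trbc1 at -0.36 and Trbc2 at -0.27 (by edgeR's quasi-likelihood test, adjusted p = 0.00584, 0.025 and 0.0113). The UMIs of a whole gate cannot tell apart fewer cells with a segment and fewer transcripts per cell, and with so few UMIs per positive cell the share of cells with a UMI does not settle it.

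Other genes of the receptor pathway gave context. The list held 18 genes besides those used for gating, of which 14 were tested. In CD8 over CD4, 10 were lower and 0 higher, while 13.7% of all genes tested were called lower and 10.6% higher. The median was -0.305, against 0.0093 over all genes. The lower ones included Cd5, an inhibitory coreceptor, at -0.89, Lcp2, a signalling adaptor, at -0.89, Cd247, the zeta chain, at -0.37, and Trac at -0.28 (by edgeR's quasi-likelihood test, adjusted p = 0.000276, 0.000249, 0.00963 and 0.00749). Zap70, Fyn, Lat, Cd6, Cd28 and Ptprc were the others, at -0.35, -0.34, -0.25, -0.45, -0.32 and -0.29. Trbc1 and Trbc2 were at 0.09 and 0.03 and not called. In Foxp3 over CD4, 8 were lower and Cd5 was higher, at 0.31, while 8.91% of all genes tested were called lower and 9.98% higher. The median was -0.325, against -0.0048 over all genes. Among the lower ones, Cd28, Lat, Fyn and Zap70 were at -0.50, -0.44, -0.44 and -0.42, besides the constant regions above.

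The strain's deleted beta families were present in the counts, mainly as Trbv12-2. The 5 deleted segments took 19.1%, 16.8%, 18.4%, 20% and 26.4% of beta V UMIs in the CD8 gates of the 4T1, 67NR, naive, axillary and mediastinal pools. The Foxp3 gates had 10.4%, 16.9%, 11.9%, 15% and 18.4%, and the CD4 gates 12.5%, 8.48%, 17.3%, 15.1% and 31.1%. Trbv12-2 alone gave 143, 144, 123, 17 and 20 of the CD8 UMIs. Without it, the mean over the 5 pools was 3.65 ± 1.21% in CD8, 3.79 ± 1.45% in Foxp3 and 3.34 ± 2.27% in CD4 cells (SD), and with it 20.1 ± 3.69%, 14.5 ± 3.35% and 16.9 ± 8.59%.

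The other 4 deleted segments were sparse. In the CD8 gates Trbv16 had 21, 11 and 11 UMIs in the 4T1, 67NR and naive pools, Trbv12-1 had 11, 8 and 12, Trbv15 had 11, 7 and 11, and Trbv26 had 1, 0 and 8. In the CD4 gates of those pools none of the 4 had more than 5 UMIs. The CD8 gates held more UMIs in total, such as 18521321 against 6158150 in the 4T1 pool. As levels, the 4 together were at 2.38, 1.4 and 2.92 CPM in these CD8 gates, against 0.65, 0.896 and 2.27 CPM in CD4. The axillary and mediastinal atlases went the other way, with 1.05 and 1.19 CPM in CD8 against 2.21 and 1.95 CPM in CD4. These 4 segments were too low for the gate tests. In a fit without the filter on low genes, their CD8 over CD4 differences were 1.47 for Trbv16, 0.76 for Trbv26, 0.23 for Trbv15 and 0.01 for Trbv12-1, and none passed (adjusted p from 0.196 to 0.994 in edgeR's quasi-likelihood test). Low counts of these 4 do not by themselves measure deletion. In the alpha-beta gates of the T cell library Trbv16, Trbv15 and Trbv12-1 were seen in 40, 35 and 46 cells, while the segments outside the deleted families that were seen in at least 20 cells ranged from 39 cells for Trbv24, annotated as a pseudogene, and 52 for Trbv4 to 394 for Trbv13-2. No strain that keeps the families was analysed here.

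**Figure D3:**
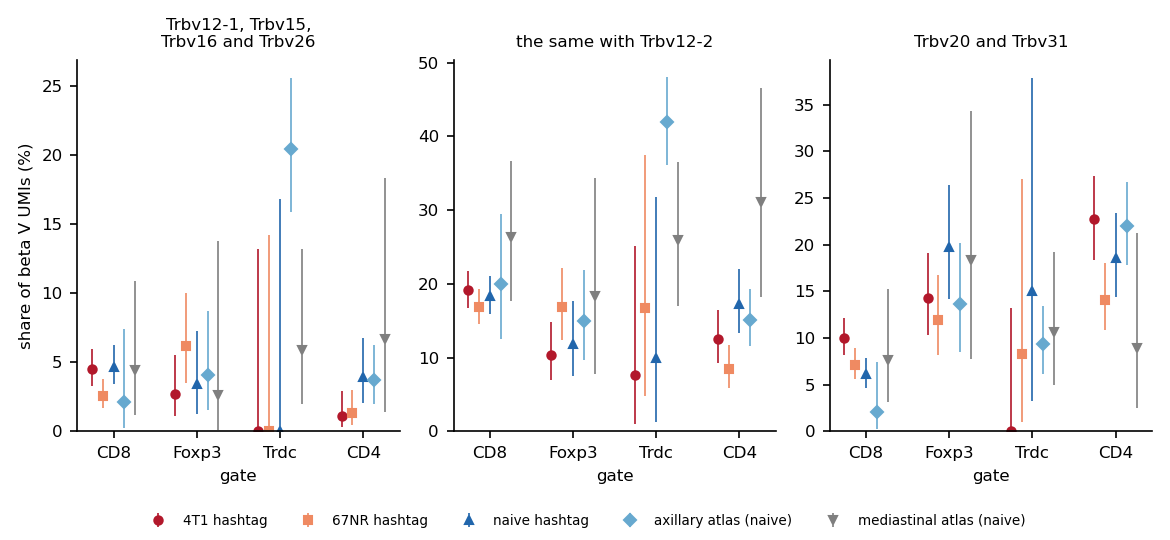
Share of beta V UMIs (y axis, %) of the deleted families with and without Trbv12-2 and of the C3H superantigen families, by gate (x axis: CD8, Foxp3, Trdc and CD4). Points are pools with 95% exact binomial bars for counting error. Without Trbv12-2 the deleted families lie at 6.67% or less in the CD8, Foxp3 and CD4 gates and at 20.4% in the axillary Trdc gate.

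A Trbv12-2 UMI often came beside another beta segment in the same cell, and how often depended on where that segment lies. Among cells of the T cell library with a Trbv13-2 UMI, which starts 2545 bases downstream of Trbv12-2, 112 of 394 (28.4%, 95% exact interval 24 to 33.2%) also held a Trbv12-2 UMI. The shares for the next segments downstream were 17.6% for Trbv13-3, 16.4% for Trbv14, 14.3% for Trbv15, 17.5% for Trbv16, 16.4% for Trbv17, 9.76% for Trbv19, 5.71% for Trbv20, 5.13% for Trbv24 and 2.82% for Trbv29. Trbv31, on the far side of the constant regions, had 4.13%. Upstream of Trbv12-2, the shares were 2.59% for Trbv13-1, 3.85% for Trbv4, 5.45% for Trbv3, 3.22% for Trbv2 and 2.14% for Trbv1. Trbv12-1, the other Tcrb-V5 segment, also lies upstream and had 19.6% (9 of 46 cells, interval 9.36 to 33.9%).

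Grouped by side, 184 of 1308 cells with only downstream segments also held Trbv12-2 (14.1%, interval 12.2 to 16.1%), against 18 of 811 cells with only upstream segments (2.22%, interval 1.32 to 3.49%). Each hashtag showed it: 13.1% against 2.6% in the 4T1 pool, 14.3% against 1.97% in 67NR and 15.1% against 2.1% in naive. The axillary atlas had 8.23% (20 of 243) against 1.65% (2 of 121), and the mediastinal atlas 4 of 73 against 0 of 38. Depth was alike on both sides of the T cell library, at medians of 12939 and 12733 UMIs per cell. Cells with no other beta segment held Trbv12-2 in 6.6% of cases. They had a lower median of 10073 UMIs and include cells without any beta segment, so their share is not a baseline for the 2 sides. The split was chosen after the values were seen and is a description without a test. Cells of 1 pool share a library, and 1 cell with several segments counts for each.

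**Figure D4:**
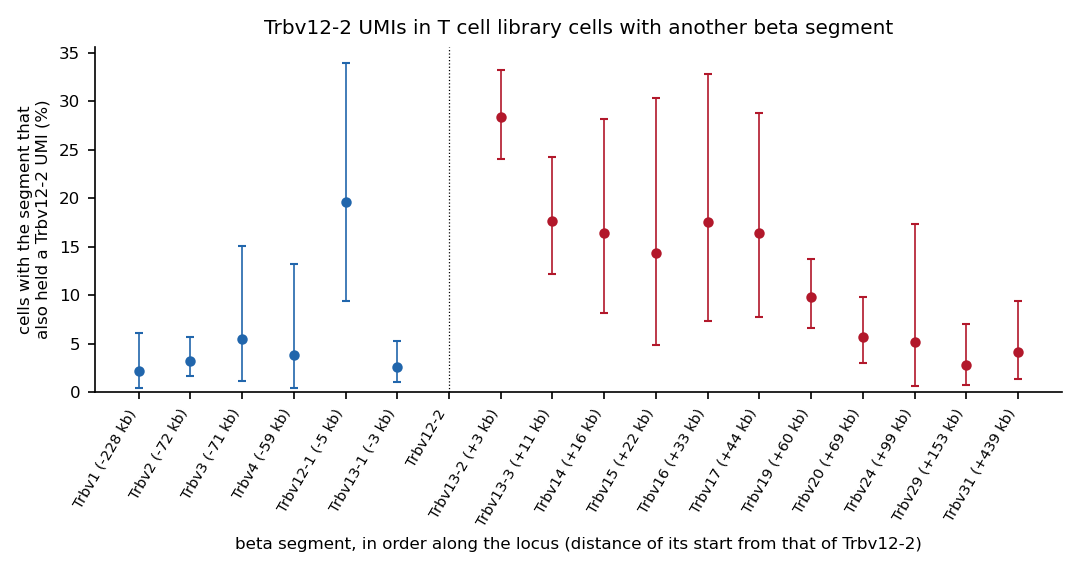
Share of T cell library cells with a given beta segment that also held a Trbv12-2 UMI (y axis, %), with segments in their order along the locus (x axis, distance from Trbv12-2 in kb). Points are shares and bars 95% exact binomial intervals, blue upstream and red downstream. The share is 28.4% at Trbv13-2, 5.71% or less from Trbv20 on, and 2.14% to 5.45% upstream apart from 19.6% at Trbv12-1.

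More than one beta segment per cell was common where it could be seen. In the alpha-beta gates of the T cell library, 2532 of 5782 cells had a beta segment, 1051 had at least 2 beta V UMIs, and 377 of these (35.9%, interval 33 to 38.9%) held at least 2 different segments. At the alpha locus, where both alleles can rearrange, it was 398 of 881 cells (45.2%, interval 41.9 to 48.5%). At least 3 different segments were seen in 52 cells for beta and 55 for alpha. Trbv12-2 with Trbv13-2 was the most frequent beta pair. The most frequent alpha pair was Trav16d-dv11 with Trav16n, in 91 cells, which is 71.7% of the cells with Trav16d-dv11 and 29.4% of those with Trav16n. Trav4-3 with Trav4-4-dv10 followed with 17 cells. Members of 1 family share stretches that cannot be assigned by sequence, such as 177 bases between the Trav16 copies, so alpha pairs do not count chains. Doublets of 1 hashtag were not removed.

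Segments were then set side by side between conditions, within gates of the T cell library. A segment was compared where 1 of the 2 pools had 30 or more of its UMIs, with an exact conditional binomial 95% interval that covers counting error only. The naive hashtag against the naive axillary atlas gives the same ratio between naive pools, but across different libraries. In the CD8 gate the axillary atlas held 1913450 UMIs, against 14387628 in the naive hashtag. Its intervals there are wider, so its count is not on the same footing as those between hashtags. In the CD8 gate, 4 of 18 segments had an interval that excluded 0 in 4T1 over naive (31% of all genes did), 6 of 17 in 67NR over naive (33.7% of all genes), 7 of 19 in 4T1 over 67NR (18.5%) and 1 of 13 in naive over axillary (25.9%). In the CD4 gate it was 1 of 7 in 4T1 over naive (22.9%), 2 of 7 in 67NR over naive (23.3%), 1 of 8 in 4T1 over 67NR (22.4%) and 2 of 5 in naive over axillary (39.2%). In the Foxp3 gate it was 0 of 3 (27%), 2 of 2 (23.4%), 2 of 4 (24.3%) and 0 of 1 (36.6%). The shares of segments were near or below those of all genes in most gates, and where they were higher, as in CD8 for 4T1 over 67NR, they rested on 7 or fewer segments. Whether an interval excludes 0 depends on the number of UMIs, which was not matched between the segments and all genes.

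Trbv2 had an interval by UMIs that excluded 0 in each of the 3 gates. In the CD4 gate it had 66 UMIs in 33 cells in the 4T1 pool, 124 UMIs in 35 cells in 67NR and 49 UMIs in 25 cells in naive. A single 67NR cell held 22 of the UMIs. The log2 ratio of 67NR over naive was 1.26 by UMIs (interval 0.77 to 1.77) and 0.41 by cells (interval -0.37 to 1.21). In the CD8 gate Trbv2 had 175, 182 and 217 UMIs in the 4T1, 67NR and naive pools, with ratios over naive of -0.67 and -0.62 by UMIs and -0.01 and -0.34 by cells. The naive hashtag was itself above the naive axillary atlas in this gate, at 1.39 by UMIs (interval 0.52 to 2.42) and 1.32 by cells. In the Foxp3 gate Trbv2 had 66 UMIs in 18 cells in the 4T1 pool, 34 in 16 cells in 67NR and 46 in 22 cells in naive. The Foxp3 ratio of 4T1 over naive was 0.14 by UMIs and -0.40 by cells, that of 67NR over naive -0.76 and -0.73, and that of 4T1 over 67NR 0.90 and 0.33. The direction by UMIs differed between gates, and by cells the Trbv2 intervals of 4T1 and 67NR over naive and of 4T1 over 67NR spanned 0 in every gate.

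Trbv13-1, called Tcrb-V8.3, differed by cells as well. In the CD8 gate it had 75 UMIs in 49 cells in the 4T1 pool, 115 UMIs in 77 cells in 67NR and 62 UMIs in 47 cells in naive. The 67NR pool was the highest of the 3 hashtags, with a log2 ratio over naive of 0.52 by UMIs (interval 0.06 to 0.99) and 0.61 by cells (interval 0.07 to 1.16). The ratio of 4T1 over 67NR was -0.61 by UMIs and -0.67 by cells (interval -1.21 to -0.13). As a level, 67NR was at 6.18 CPM, below the 6.79 CPM of the naive axillary atlas, and naive over axillary was -0.66 by UMIs (interval -1.53 to 0.33) and 0.09 by cells. Trav5-1 in the CD8 gate had 16 UMIs in 11 cells in the 4T1 pool, 32 in 22 cells in 67NR and 10 in 7 cells in naive, with a ratio of 67NR over naive of 1.31 by UMIs and 1.55 by cells (interval 0.27 to 3.02). Trav3-3 in the CD4 gate had 39 UMIs in 22 cells in the 67NR pool and 14 UMIs in 8 cells in naive, with a ratio of 1.40 by UMIs and 1.38 by cells (interval 0.16 to 2.76).

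For the segments that follow, no interval by cells excluded 0 in the same contrasts. Trav17 in the CD8 gate had 37 UMIs in 12 cells of the 4T1 pool, 16 of them in 1 cell, against 11 UMIs in 5 cells of the 67NR pool. Trav8d-2 had 38 UMIs in 10 cells of the 4T1 pool, 19 of them in 1 cell, against 14 UMIs in 7 cells of the naive pool. Trav21-dv12 in CD8 had 49, 30 and 59 UMIs in 16, 14 and 22 cells of the 4T1, 67NR and naive pools. Trbv13-3 in CD8 had 40, 55 and 64 UMIs in 32, 42 and 39 cells. Trav16n and Trav16d-dv11 in CD8 were lower in 4T1 than in 67NR, at log2 ratios of -0.38 and -0.73, and Trav14d-3-dv8 was higher, at 0.93. In CD4 cells Trav14d-3-dv8 was higher in 4T1 than in naive, at 0.96, and in Foxp3 cells Trbv19 was higher in 67NR than in naive, at 0.96, and Trav3-3 higher in 4T1 than in 67NR, at 1.38.

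Over the 3 gates, in 4T1 over naive, 67NR over naive and 4T1 over 67NR, 25 pairs of segment and gate had an interval that excluded 0 by UMIs, 12 higher and 13 lower, from 12 different segments. Counted as cells with a UMI, with no minimum on cells, 24 kept their direction and 4 kept an interval that excludes 0: Trbv13-1 and Trav5-1 in 67NR over naive CD8, Trbv13-1 in 4T1 over 67NR CD8, and Trav3-3 in 67NR over naive CD4. Naive over axillary gave 3 more by UMIs, Trbv2 higher in CD8 (above) and Trbv13-2 and Trbv20 lower in CD4, at -0.81 and -0.58. The contrasts share pools and are not independent. Shares of cells with a UMI are not scaled for depth, which was lowest in the naive hashtag. The CD8 gates had medians of 13339, 12853 and 11354 UMIs per cell in the 4T1, 67NR and naive pools. The CD4 gates had 9488, 9587 and 8801.5. Whether depth bears on the 4 pairs was not tested.

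**Figure D5:**
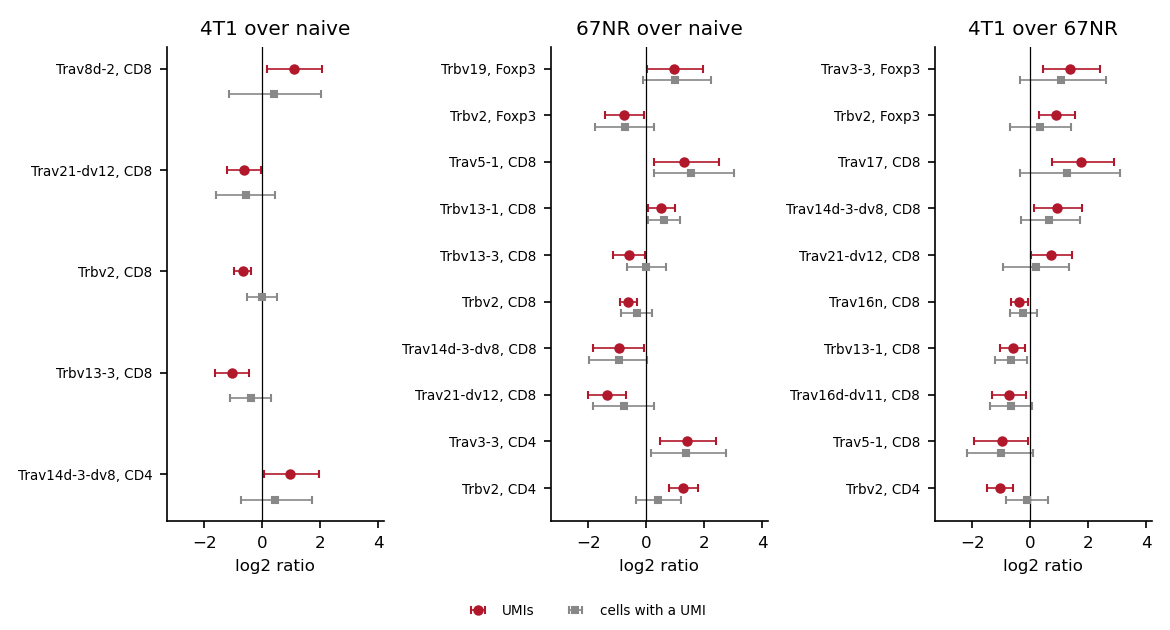
Log2 ratios (x axis) of the 25 pairs of segment and gate (y axis) whose interval by UMIs excluded 0, 1 panel for each contrast. Red points are ratios of CPM, grey squares ratios of the share of cells with a UMI, and bars 95% intervals for counting error. Trbv2 lies at 1.26 by UMIs and 0.41 by cells for 67NR over naive in the CD4 gate.

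Whether the gate differences themselves differed between tumour and naive pools was tested as an interaction, with the 4T1 and 67NR pools against the naive hashtag and both atlases. For CD8 over CD4, 4 of the 11013 genes passed (0.0363%) and 0 of the 12 segments. Trav14d-3-dv8 and Trav3-3 had an unadjusted p under 0.05, with interaction estimates of -1.46 ± 0.59 and -1.19 ± 0.46 (SE, by edgeR's quasi-likelihood test, adjusted p = 0.633 and 0.611). For Foxp3 over CD4, 50 of 10996 genes passed (0.455%) and 0 of 11 segments, with 0 at an unadjusted p under 0.05. DESeq2 also called 0 segments in each.

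Cells with a Trdc UMI and no Cd4, which hold the constant chain of the delta receptor, numbered 3423 in the axillary and 1875 in the mediastinal atlas, and 23, 20 and 25 in the 4T1, 67NR and naive pools of the T cell library. In the axillary Trdc gate the gamma-delta markers summed to 1444 CPM, against 17.5 CPM in the CD4 gate, and Trac had 69.4 CPM, against 626 CPM. In the Trdc gates of the 4T1, 67NR and naive pools Trac was at 527, 389 and 351 CPM, and the gamma-delta markers at 146.2, 171.8 and 173.5 CPM. This gate set no limit on Cd8a and Cd8b1, which summed there to 715.1, 638.3 and 740.7 CPM. The CD8 gates of those pools had 963.4, 933.1 and 919.1 CPM, and the axillary and mediastinal Trdc gates 16.66 and 151.4 CPM. In the mediastinal Trdc gate the gamma-delta markers summed to 709 CPM, thymocyte markers to 157 CPM and B cell markers to 459 CPM. A V UMI was seen in 11.3% of axillary Trdc cells, against 42.4% of axillary CD4 cells.

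The make-up of these UMIs was set beside that of CD4 cells, and its estimates lay on opposite sides in the atlases and in the T cell library. The Trdc gates of the T cell library were rich in Cd8 transcripts (above), and the bearing of that on the estimates was not tested. Alpha segments that also join at the delta locus (symbols with -dv, 10 members) took 110 of 212 alpha V UMIs in the axillary Trdc gate (51.9%, interval 44.9 to 58.8%), against 47 of 228 in its CD4 gate (20.6%, interval 15.6 to 26.5%). In the mediastinal atlas it was 32.9% (interval 22.7 to 44.4%) against 16.7% (interval 6.37 to 32.8%). In the T cell library the -dv share of the Trdc gate was 7.5% (3 of 40 UMIs) in the 4T1 pool, 7.14% (2 of 28) in 67NR and 13% (3 of 23) in naive, against 21.1%, 22.1% and 16.9% in the CD4 gates of the same pools. The upper limits of these Trdc intervals were 20.4%, 23.5% and 33.6%. Trav15-1-dv6-1 had 29 UMIs in the axillary Trdc gate against 2 in CD4, Trav15-2-dv6-2 had 17 against 0, Trav14d-3-dv8 had 28 against 14 and Trav16d-dv11 had 23 against 4. Trav4-4-dv10 went the other way, with 2 against 15. As levels the -dv segments together were lower, at 4.13 CPM in the axillary Trdc gate against 7.98 CPM in CD4. In the alpha-beta gates the -dv share was alike, 20.1 ± 3.05% in CD8, 20 ± 3.23% in Foxp3 and 19.5 ± 2.51% in CD4 (SD, n = 5 pools each).

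Of the 5 Trdc gates, the axillary one held the largest share of the strain's deleted beta families. They took 117 of its 279 beta V UMIs (41.9%, interval 36.1 to 48%), against 53 of 350 in axillary CD4 cells (15.1%, interval 11.6 to 19.3%). Without Trbv12-2 it was 57 UMIs (20.4%, interval 15.9 to 25.6%) against 13 (3.71%, interval 1.99 to 6.27%). Trbv15 gave 20 of them, Trbv12-1 16, Trbv26 12 and Trbv16 9. As levels, the 4 segments together were at 2.14 CPM in the axillary Trdc gate and 2.21 CPM in its CD4 gate, while all beta segments were at 10.5 CPM and 59.4 CPM. The other Trdc gates did not show it. Without Trbv12-2 the share was 5.88% in the mediastinal Trdc gate, against 6.67% in its CD4 gate, and 0 of 26, 0 of 24 and 0 of 20 beta V UMIs in the 4T1, 67NR and naive Trdc gates, which 95% exact limits put at up to 13.2%, 14.2% and 16.8%. With Trbv12-2 it was 25.9% in the mediastinal and 7.69%, 16.7% and 10% in the 4T1, 67NR and naive Trdc gates.

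The alpha segments of invariant T cells had few UMIs. Trav11, used by invariant NKT cells, had 3 UMIs in 3 cells of the T cell library, all 3 of which also held a UMI of Zbtb16, the transcription factor of innate-like T cells, seen in 168 of 7210 cells there. It had 0 UMIs in the axillary atlas, where 3785 of 11503 cells had a Zbtb16 UMI, and 11 in the mediastinal atlas, where 2 of the 11 cells had Zbtb16. Its copy Trav11d had 0 UMIs in all 3 libraries. The 2 share an identical stretch of 290 bases, in transcripts of 343 and 342 bases. By default, reads that match both equally are not counted. The UMIs of Trav11 and Trav11d therefore do not show how many cells use them. Trav1, used by MAIT cells, had 43 UMIs in 34 cells of the T cell library, 1 of them with Zbtb16, and 0 and 8 UMIs in the axillary and mediastinal atlases.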

How the data were processed

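Gene counts came from 3 droplet libraries (10x Genomics 3' v3.1), 1 of T cells from axillary nodes and 2 naive atlases. The authors deposited them as raw UMI counts per gene and cell barcode. Per the submitters' processing notes they used Cell Ranger 7.0 and mm10. Which annotation and intron setting they used is not given in the sources used here. The stromal and the myeloid and stromal libraries served as other libraries of the series. Of columns of other samples there were 0.

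Cells needed at least 500 UMIs, 250 genes and at most 10% mitochondrial UMIs. In the T cell library a hashtag was called at 10 counts and 3 times the next, and 541 doublets (6.98%) and 4 cells without a hashtag were removed. No doublet caller was run on the atlases, where the gates drop cells with marker genes of other types. Total gene UMIs were 121022621, 87408477 and 67290580 in the T cell, axillary and mediastinal libraries.

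UMIs were summed per pool and gate, and CPM is a gene's UMIs per 1000000 of that sum. Gates were compared by quasi-likelihood (glmQLFit, then glmQLFTest, of edgeR 4.0.16 in R 4.3.3) on all genes after filterByExpr and TMM scaling, at an adjusted p of 0.05. The pool was a block, since both gates come from the same mice of a pool, and no label ties a pool's cells to single mice. The 3 hashtagged pools share a library, so the spread between pools may be partly technical. The test was tried on simulated counts. With changes set among the tested V segments only, a log2 change of 1 was recovered in 0 of 4 segments for CD8 over CD4. For Foxp3 over CD4 it was recovered in 0 of 3, and a log2 change of 2 in 1 of 2 segments in each comparison. A segment that was not called is therefore not shown to be unchanged. DESeq2 1.42.0 was the other tool. Intervals are exact at 95% and cover counting error only.

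Coordinates, biotypes and sequences came from GENCODE M21 (GRCm38), in which all 163 Ensembl IDs matched, and synonyms from the RefSeq table of GRCm38.p6. Named segments are those past the threshold (up to 12 each way), up to 4 highest and lowest ratios per contrast and gate, the 10 most abundant of each locus, and the listed families. The members and lists were chosen with earlier results of these data known. Alternatives changed the tool, scaling, filters, gates, block and pools. The deleted-family share without each pool and without Trbv12-2 was added after seeing the data. Python 3.11.15 was used with pandas 2.3.3, numpy 2.4.6, scipy 1.17.1 and matplotlib 3.10.9.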

Additional observations from a re-analysis of the deposited data

Results flagged for a closer look

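Of 23 segment and gate comparisons with a ratio in 4 or 5 pools, chance flags about 1 in 20 for a sample that lies far from the others, and 2 were flagged. The Trbv20 ratio of CD8 over CD4 in the axillary pool was the lowest of 5, at -3.51 on the log2 scale, and rested on 2 CD8 UMIs. The Trbv2 ratio of Foxp3 over CD4 in the 67NR pool was the lowest of 5, at -1.83.

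Trbv2 went opposite ways between gates in 2 contrasts. In 67NR over naive it was higher in the CD4 gate (1.26) and lower in the CD8 gate, and in 4T1 over 67NR it was higher in the Foxp3 gate (0.90) and lower in the CD4 gate. Neither difference was tested.

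V UMIs were also seen in the libraries that the comparisons do not use, 47 in the myeloid and stromal library and 37 in the stromal library. Of these, 46 and 36 were in cells with a Cd3 UMI.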

How the results depend on the processing

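The number of segments called depended on the fit, and the share of all genes called is given for the main fits only. In CD8 over CD4 it was 5 of 12, and 2 with DESeq2, 9 without the filter on low genes (100 segments tested), 8 in the T cell library alone, 3 with at least 2 UMIs of the gate genes, and 2 to 6 with 1 pool left out. In Foxp3 over CD4 it was 2 of 11, and 0 with DESeq2, 0 as shares of the locus, 5 without the filter on low genes, 1 with at least 2 UMIs of the gate genes, and 0 to 4 with 1 pool left out. Without the replicate block of pools it was 2 in CD8 over CD4, where Trbv20 and Trbv29 remained, and 0 in Foxp3 over CD4. Of the single segments, 107 values across settings kept direction and side of the threshold, 34 no longer passed and 2 passed anew, and none of these changed direction. With cells in place of UMIs, and the same minimum of 30, fewer pairs had an interval that excluded 0. They numbered 0 in 4T1 over naive (5 by UMIs), 2 in 67NR over naive (10) and 1 in 4T1 over 67NR (10). Of the 25 pairs, 2 were kept, both Trbv13-1 in CD8, and 15 had fewer than 30 cells. Also outside 0 by cells was Trav16d-dv11 in 67NR over naive CD8, at 0.77 (interval 0.02 to 1.55). By UMIs its interval spanned 0 (-0.16 to 1.07). Below that minimum, Trbv20 in Foxp3 cells was at 1.62 by cells in 4T1 over 67NR (interval 0.40 to 3.00). By UMIs its interval spanned 0 as well (-0.07 to 1.83). Trbv13-3 in 67NR over naive CD8 was at 0.0028 by cells, against -0.59 by UMIs. Cells thinned to 1000 UMIs gave 84.9 CPM of V UMIs in Foxp3, and shares of cells with several segments of 0% for beta (0 of 10 cells) and 25.9% for alpha (7 of 27). At that depth no segment passed the filter for the gate tests, which therefore gave no value. With 1 pool left out, the deleted-family mean was 18.6% to 21% in CD8, 13.5% to 15.5% in Foxp3 and 13.3% to 19% in CD4. Causes were not tested.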
